A study of Mus musculus with 24 samples.

Results

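Gene counts from 6 microglia libraries were compared, 3 from control mice injected with lipopolysaccharide (LPS) and 3 from control mice injected with saline, out of 24 libraries of microglia and astrocytes in the study. The libraries were chosen by their titles, and every gene in their tables was considered. Controls were adult littermates of Serpine2-/- mice that carried 1 or more working Serpine2 alleles, so mice with 1 and with 2 such alleles are not told apart. Microglia were taken from whole brain after perfusion with buffered saline, by douncing, Percoll and binding to antibody-coated dishes, so a library is a preparation that can hold RNA of other cells. The strain, the age beyond adult, and the dose, route and timing of LPS are not given in the sources used here. Nothing says whether a library came from 1 mouse. The p-values of the main fit measure the spread between libraries, estimated over all 12 microglia libraries, knockouts included.

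LPS is a component of the outer membrane of Gram-negative bacteria. Macrophages, including microglia, the resident macrophages of the brain, sense it through Toll-like receptor 4 with its partners CD14 and MD-2, and the adaptors MyD88 and TRIF then activate NF-kB and interferon regulatory factors. The early products are cytokines, chemokines and feedback inhibitors, and interferon-stimulated genes, acute-phase proteins and metabolic enzymes follow. An injection outside the brain also reaches microglia indirectly, through blood-borne cytokines and the brain vasculature. In the healthy brain microglia keep a set of homeostatic genes, such as those for purine receptors, under the influence of transforming growth factor beta (TGF-beta).

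The LPS libraries held 13331984, 13621776 and 9369563 gene counts in controls 1, 2 and 3, and the saline libraries held 6093966, 5354865 and 13584388. Another 67.5% to 73.9% of the reads in LPS libraries and 65.7% to 77.9% in saline libraries, counted over gene reads and reads outside genes, fell outside annotated genes. A single identifier held 13.5% of the gene counts in saline control 3. It held 6.22%, 2.5% and 6.61% in LPS controls 1, 2 and 3 and 4.06% in saline control 1. The first principal component, the main axis of variation of log2 CPM (45.6% of the variance over these 6 libraries), did not separate LPS from saline. Saline controls 1, 2 and 3 stood at 25.5, 84.4 and −46.1 on it, and LPS controls at −28.6, 10.4 and −45.7. Serpine2 stood at 49.1, 68.4 and 87.96 CPM in LPS controls, against 62.2, 46.6 and 96.5 CPM in saline controls, values given here and below for replicates 1, 2 and 3, and its groups overlapped. In the LPS control 1 library, which is labelled female, Xist had 73 counts and the Y-linked Ddx3y 251, a male pattern. The other 5 libraries matched their labels, which are female, male and female for LPS controls and male, female and male for saline controls. Tmem119, P2ry12 and Cx3cr1, which define microglia, were present in every library. The 11 neuron markers tested summed to 2479 to 2618 CPM in LPS libraries and 2683 to 3422 CPM in saline libraries, so the preparations also held RNA of neurons.

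Microglia of control mice injected with LPS had more RNA of some genes of acute-phase and antimicrobial proteins, scavenger and Fc receptors and chemokines. Some interferon-stimulated genes and genes of MHC class I and cell division also had more RNA. Homeostatic microglial genes leaned lower, and 6 of 22 were called. Expression is given as CPM, the gene counts scaled to the library size after TMM normalisation, and differences as the log2 fold change of LPS over saline with its standard error (SE). Of 22230 genes tested, 117 (0.526%) were called higher in LPS and 11 (0.0495%) were called lower, 128 in all (0.576%), by edgeR's quasi-likelihood test with a false discovery threshold of 0.05. The counts of called list members below are to be read against these shares. Across tested genes the median log2 fold change was −0.05, the middle of the genes lay between −0.29 and 0.15 (quartiles), and 43.5% of genes were above 0. The 117 higher genes ranged from 1.02 to 8.68 on the log2 scale with a median of 2.51, and 29 of them averaged under 1 CPM in saline. All 128 called genes had LPS and saline values that did not overlap, as did 5.46% of all tested genes in the upward direction and 7.25% in the downward direction. DESeq2 called 250 higher and 35 lower, and edgeR without a filter on low counts called 362 and 101.

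LPS control 3 held the highest of the 3 LPS values in 108 of the 117 higher genes (92.3%) and the lowest in 0. Over all tested genes the same library was highest in 33.5%. Without it 83 genes were called higher and 6 lower. Without LPS control 2 and without saline control 1 there were also 6 called lower.

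**Figure D1:**
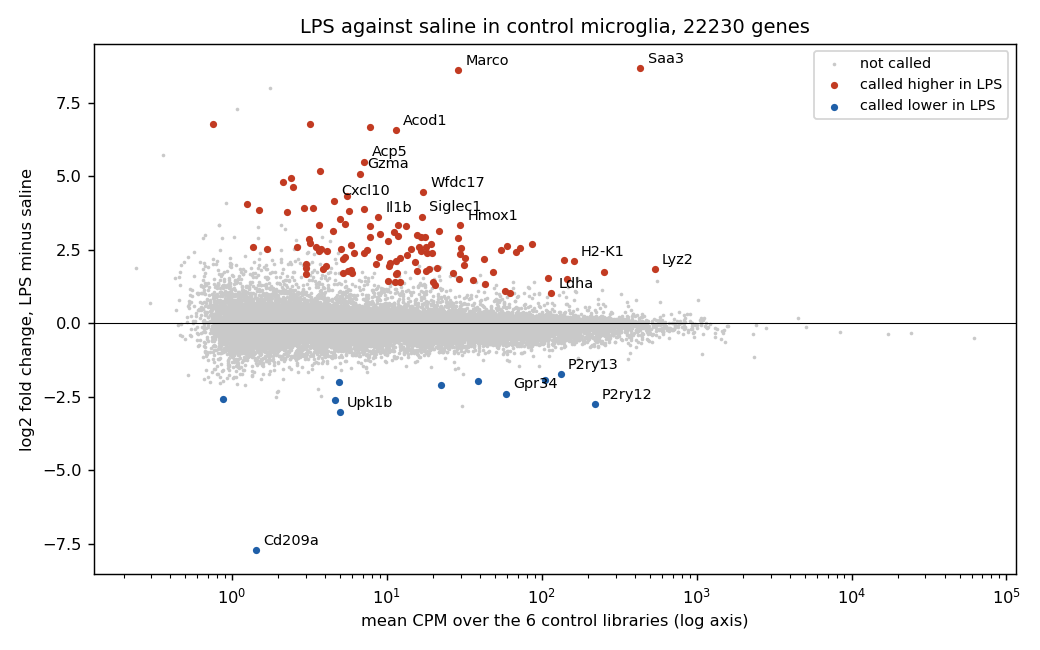
Log2 fold change of LPS over saline against the mean CPM over the 6 control libraries (log axis) for the 22230 genes tested, 1 point a gene, with the 117 genes called higher in red, the 11 called lower in blue and the rest in grey. Saa3 and Marco stand highest, at 8.68 and 8.61, and P2ry12 (−2.74) is the most abundant of the lower genes.

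The genes that fell were led, among abundant ones, by receptors that mark resting microglia. P2ry12 (ENSMUSG00000036353), the ADP receptor that steers microglial processes towards damaged cells, stood at 84.5, 42.03 and 45.3 CPM in LPS controls, against 382, 380.5 and 387 CPM in saline controls. Its highest LPS value was far below its lowest saline value, and the saline libraries were nearly equal. The difference was 6.68-fold (log2 fold change −2.74, SE 0.36, edgeR adjusted p = 0.00147). P2ry13, a related ADP receptor, stood at 68.3, 52.5 and 64.01 CPM in LPS controls, against 224, 208 and 178 CPM in saline controls (log2 fold change −1.72, SE 0.22, edgeR adjusted p = 0.00115). Gpr34, a receptor for lysophosphatidylserine, stood at 26.5, 15.2 and 14.9 CPM in LPS controls, against 117, 72.4 and 108 CPM in saline controls (log2 fold change −2.39, SE 0.36, edgeR adjusted p = 0.00381). In all 3 receptor genes LPS control 1 kept the most RNA of the LPS libraries, and no LPS value reached a saline value.

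Tgfbr1, a receptor through which TGF-beta acts, stood at 55.03, 37.2 and 37.9 CPM in LPS controls, against 189.9, 138 and 169 CPM in saline controls and fell by 1.93 on the log2 scale (SE 0.37, edgeR adjusted p = 0.0214). Hpgd, which inactivates prostaglandins, stood at 11.2, 7.26 and 7.09 CPM in LPS controls, against 39.2, 40.4 and 28.9 CPM in saline controls (log2 fold change −2.08, SE 0.37, edgeR adjusted p = 0.0138). Slc2a5, the fructose transporter GLUT5, stood at 17.9, 10.1 and 19.4 CPM in LPS controls, against 82.6, 39.5 and 63.3 CPM in saline controls (log2 fold change −1.97, SE 0.42, edgeR adjusted p = 0.0496). The groups were apart in all 3 genes. Without LPS control 2, LPS control 3 or saline control 1, the edgeR adjusted p was 0.115, 0.136 and 0.0836 for Tgfbr1, and 0.0835, 0.1 and 0.0575 for Hpgd. For Slc2a5 the edgeR adjusted p was 0.0668 to 0.199 without any one of LPS controls 1, 2 and 3 and saline controls 1 and 3, 0.193 and 0.0796 with sex from the labels and from transcripts as a covariate, and 0.0564 with the replicate block. Tgfbr1 also lost its call with sex from the labels (0.0711).

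Among the other genes that fell, Tlr5, the receptor for bacterial flagellin, stood at 2.04, 1.59 and 2.26 CPM in LPS controls, against 9.67, 6.67 and 7.17 CPM in saline controls (log2 fold change −2.0, SE 0.38, edgeR adjusted p = 0.0214). Its edgeR adjusted p was 0.0862 to 0.12 without any one of LPS controls 1, 2 and 3 or saline control 1, and 0.0712 with sex from the labels. Cd209a, a C-type lectin of the DC-SIGN family, had no counts in the 3 LPS libraries and 8, 27 and 29 counts in saline libraries. Taking 3 counts over the LPS group as the limit that a count of 0 allows, it was at least 34.9-fold lower (edgeR adjusted p = 0.00109). Upk1b, a tetraspanin first known from bladder lining, stood at 1.73, 0.553 and 0.967 CPM in LPS controls, against 10.4, 8.22 and 8.08 CPM in saline controls (log2 fold change −3.02, SE 0.42, edgeR adjusted p = 0.00224). Myo18b, an unconventional myosin, stood at 1.13, 1.31 and 1.504 CPM in LPS controls, against 10.02, 5.31 and 8.62 CPM in saline controls (log2 fold change −2.6, SE 0.38, edgeR adjusted p = 0.00319). Il1rl1, which encodes the interleukin-33 receptor ST2, had 4, 3 and 2 counts in LPS libraries and 9, 9 and 16 in saline libraries (log2 fold change −2.57, SE 0.54, edgeR adjusted p = 0.0437), and its call was lost whichever of the 6 libraries was left out (adjusted p 0.105 to 0.274) and also with either sex covariate, the replicate block, no filter or only the 6 control libraries (0.055 to 0.0968).

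In the list of 22 homeostatic microglial genes, all of which were tested, 6 fell, against 0.0495% of all genes, and 0 rose. The 6 were P2ry12, P2ry13, Gpr34, Slc2a5, Hpgd and Tgfbr1. The list's median log2 fold change was −1.18, against −0.05 for all genes, and 0 of the 22 were above 0. Every LPS value lay below every saline value in 14, against 7.25% of all genes, and 16 had an edgeR unadjusted p under 0.05. The number of calls was 3 without LPS control 2, 3 without LPS control 3 and 3 without saline control 1. Members that were not called spanned a wide range. Cx3cr1, the receptor for neuronal fractalkine, averaged 136 ± 43.8 CPM in LPS controls and 333 ± 106 CPM in saline controls (SD, n = 3 each; log2 −1.29, edgeR adjusted p = 0.235), and Siglech averaged 51.7 ± 19.8 CPM in LPS controls and 139.8 ± 24.7 CPM in saline controls (log2 −1.44, edgeR adjusted p = 0.125). Their groups did not overlap. Tmem119, a microglial surface protein, stood at 279, 143 and 310.5 CPM in LPS controls, against 758, 187 and 542 CPM in saline controls, and saline control 2 lay within the LPS range (log2 −1.02, edgeR adjusted p = 0.701). Csf1r, the receptor that microglia need for survival, had log2 −0.33, and the lipid-sensing receptor Trem2 had −0.36, neither called. DESeq2 called 8 of the 22, and edgeR without the filter on low counts 15.

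The summed level of 11 microglia markers, among them P2ry12, P2ry13 and Gpr34, was 1610 to 2878 CPM in LPS libraries and 2859 to 5323 CPM in saline libraries. Csf1r, the most abundant of them, stood at 1315, 765 and 1431 CPM in LPS controls, against 1913, 868 and 1620.2 CPM in saline controls, with overlap. In bulk RNA fewer microglia in a preparation and less RNA of these genes per cell cannot be told apart, and the part of the makeup of the preparations in these results was not tested. Among 16 genes of TGF-beta signalling and of microglial transcription factors, 1 (Tgfbr1) fell and 0 rose, at a median of −0.27. Sall1, a transcription factor of microglial identity, averaged 49.1 ± 12.6 CPM in LPS controls and 97.96 ± 26.01 CPM in saline controls (−1.0, not called), while Spi1, which encodes the factor PU.1, had log2 0.40.

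**Figure D2:**
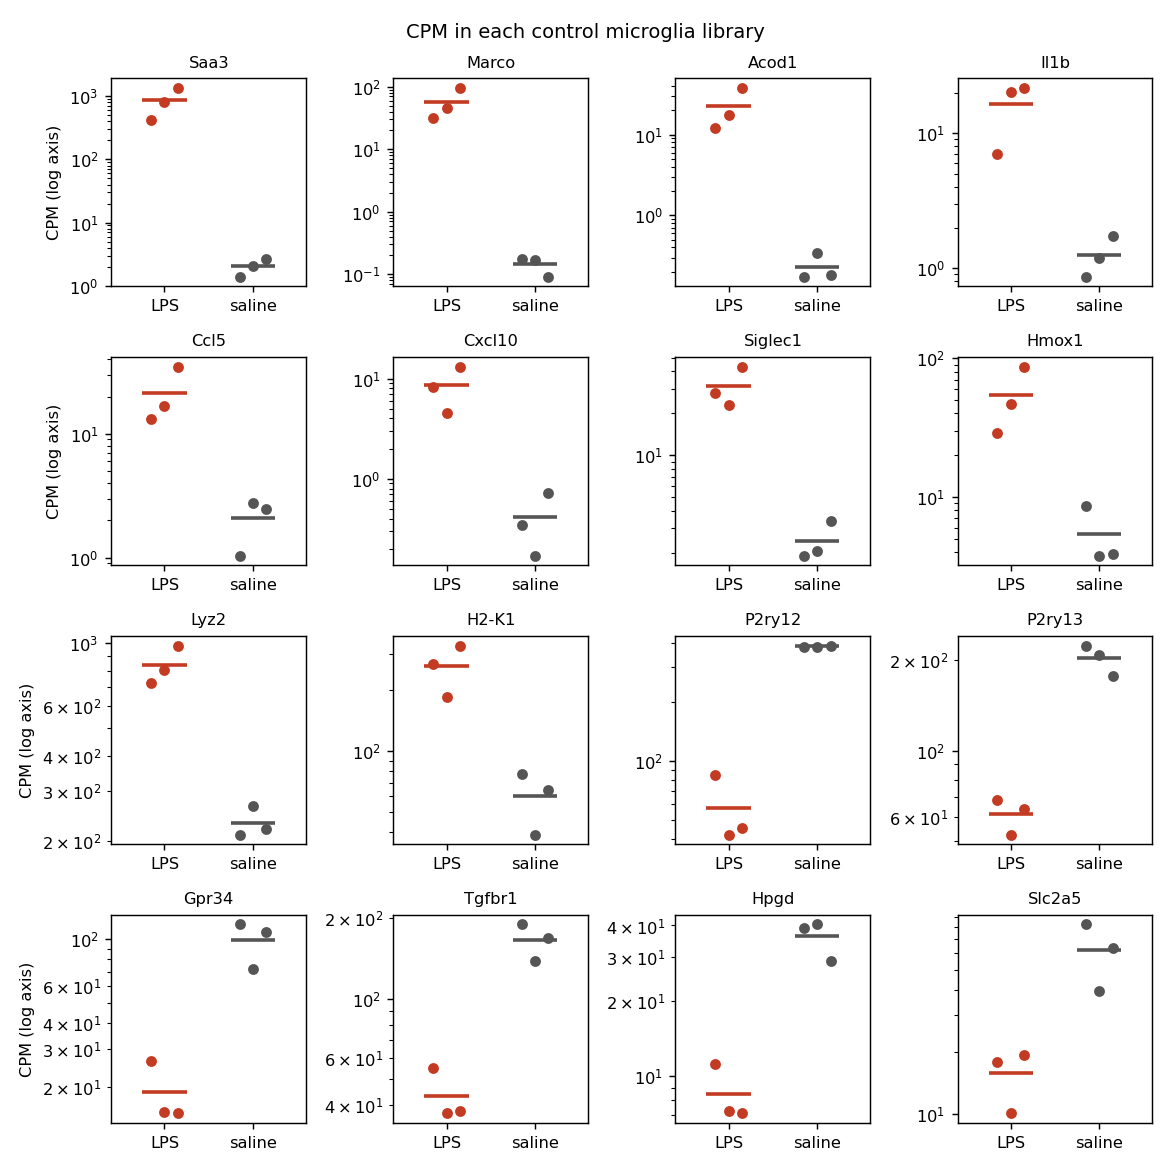
CPM (log axis, 1 axis a panel) of 16 genes in each control library, with LPS in red on the left, saline in grey on the right, 1 point a library in the order of replicates 1 to 3 and a bar at the mean. In every panel all 3 LPS points lie on one side of all 3 saline points, above in the first 10 genes and below in P2ry12, P2ry13, Gpr34, Tgfbr1, Hpgd and Slc2a5.

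Genes of secreted antimicrobial and acute-phase proteins held the largest change. Saa3 (ENSMUSG00000040026), a serum amyloid A protein made by macrophages and other cells during the acute phase, stood at 424, 817 and 1354 CPM in LPS controls, against 1.38, 2.05 and 2.63 CPM in saline controls. This was a 410.4-fold difference (log2 fold change 8.68, SE 0.48, edgeR adjusted p = 3.43e-07), with LPS control 3 highest and no overlap. Wfdc17, a small secreted WAP-domain protein, stood at 14.5, 42.2 and 41.8 CPM in LPS controls, against 1.04, 2.22 and 1.27 CPM in saline controls (log2 fold change 4.46, SE 0.67, edgeR adjusted p = 0.00355). Lyz2, the lysozyme of myeloid cells, was already abundant in saline and stood at 725, 807 and 981 CPM in LPS controls, against 211, 267 and 220.3 CPM in saline controls (log2 fold change 1.85, SE 0.21, edgeR adjusted p = 0.000509). Hp, which encodes the hemoglobin-binding protein haptoglobin, stood at 32.3, 49.8 and 49.1 CPM in LPS controls, against 16.1, 10.95 and 18.4 CPM in saline controls (log2 fold change 1.52, SE 0.26, edgeR adjusted p = 0.0104). Lcn2, which starves bacteria of iron by binding siderophores, stood at 115, 143 and 236 CPM in LPS controls, against 52.9, 56.3 and 58.98 CPM in saline controls (log2 fold change 1.55, SE 0.28, edgeR adjusted p = 0.0128), and the call was lost without LPS control 3 (edgeR adjusted p = 0.0665) and without saline control 1 (0.0658).

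Those 5 were the called members of a list of 27 antimicrobial genes, of which 26 were tested. Among all tested genes 0.526% were called higher. In the list 0 fell and the median was 0.71. Among members that are also in the neutrophil marker list, S100a8 had log2 0.45, S100a9 −0.40, Camp −0.35 and Ltf 0.25, none of them called. The 12 neutrophil markers summed to 669 to 1010 CPM in LPS libraries and 755 to 897 in saline libraries, at a median of 0.08. EdgeR and DESeq2 called 0 of the 12, and 4 had an edgeR unadjusted p under 0.05. These 4 split: Retnlg (−1.48) and Ly6g (−1.05) were lower in every LPS library, Cxcr2 (1.43) and Mmp9 (0.68) higher in every one. DESeq2 called 9 of the 26 antimicrobial genes. Cybb, the catalytic subunit of the phagocyte NADPH oxidase, averaged 38.7 ± 7.07 CPM in LPS controls and 12.8 ± 5.38 CPM in saline controls without overlap (1.59, edgeR adjusted p = 0.147). Rnase4, a secreted ribonuclease, averaged 14.2 ± 1.44 CPM in LPS controls and 47.5 ± 7.25 CPM in saline controls, lower in every LPS library and not called (−1.74, edgeR adjusted p = 0.0734).

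Iron and heme handling overlapped with that list. Hmox1, which breaks heme down to biliverdin, iron and carbon monoxide, stood at 28.9, 47.01 and 86.9 CPM in LPS controls, against 8.64, 3.77 and 3.902 CPM in saline controls (log2 fold change 3.34, SE 0.48, edgeR adjusted p = 0.00282), with LPS control 3 highest. Acp5, a lysosomal acid phosphatase that contains iron, stood at 13.2, 11.3 and 17.7 CPM in LPS controls, against 0.173, 0 and 0.544 CPM in saline controls (log2 fold change 5.5, SE 0.52, edgeR adjusted p = 0.000118). With Hp and Lcn2 they made 4 called members of 15 tested (17 listed), 0 of them lower, against 0.526% of all genes called higher. The list's median was 1.45. The ferritin subunits Fth1 and Ftl1 averaged 809 against 296 CPM and 251 against 85.5 CPM in LPS against saline controls, with no overlap and edgeR adjusted p of 0.12 and 0.0803. Without saline control 1 both were called (edgeR adjusted p 0.0286 and 0.0496), and Ftl1 also without LPS control 2 (0.036). The iron exporter Slc40a1 (ferroportin) averaged 7.097 against 19.5 CPM, lower in every LPS library and not called (−1.45).

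Among genes that sense or inactivate LPS, Tlr4 was not called and Aoah, whose product removes acyl chains from LPS, rose. Aoah stood at 24.3, 28.9 and 41.03 CPM in LPS controls, against 2.42, 5.99 and 3.902 CPM in saline controls (log2 fold change 2.93, SE 0.37, edgeR adjusted p = 0.00115). Tlr2, the receptor for bacterial lipoproteins, stood at 43.9, 42.2 and 72.4 CPM in LPS controls, against 17.3, 15.4 and 23.9 CPM in saline controls (log2 fold change 1.48, SE 0.27, edgeR adjusted p = 0.0147), and its call was lost without LPS control 3 (edgeR adjusted p = 0.0579) and without saline control 1 (0.0593). These 2 were the called members of 18 LPS-sensing genes, all tested, at a median of 0.06. Tlr4 stood at 9.57, 7.05 and 8.91 CPM in LPS controls, against 17.3, 8.56 and 14.97 CPM in saline controls, with overlap (−0.68, edgeR adjusted p = 0.782), Cd14 had log2 0.30 and Myd88 0.61. Irak3, an inhibitor of Toll-like receptor signalling, averaged 8.06 ± 1.37 CPM in LPS controls and 1.64 ± 1.09 CPM in saline controls with no overlap and just missed the threshold (2.4, edgeR adjusted p = 0.0667).

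Of 19 NF-kB subunits and feedback inhibitors, all tested, 1 rose and 0 fell, at a median of 0.27. The member called was Bcl3, an atypical IkB protein, at 8.29, 4.98 and 14.6 CPM in LPS controls, against 0.518, 0.171 and 1.36 CPM in saline controls (log2 fold change 3.54, SE 0.54, edgeR adjusted p = 0.00381). Nfkbia, the classical inhibitor IkB-alpha, had log2 0.28, Tnfaip3 (A20) had 0.52 and Traf1 1.97 (edgeR adjusted p = 0.0551), none called, though Traf1 was called without saline control 3 (edgeR adjusted p = 0.0354). Among 23 genes of STAT and SOCS feedback (21 tested) only Socs3, which limits interleukin-6 family signalling, was called, at 14.8, 30.4 and 54.3 CPM in LPS controls, against 7.26, 3.42 and 7.99 CPM in saline controls (log2 fold change 2.39, SE 0.44, edgeR adjusted p = 0.015), and its edgeR adjusted p was 0.0632 without LPS control 3, 0.0527 without saline control 2 and 0.0618 with only the 6 control libraries. Of the 18 immediate early and dissociation stress genes, 17 were tested and 0 called by edgeR or DESeq2, with 1 at an unadjusted p under 0.05, at a median of −0.03. Fos had log2 0.12. EdgeR without the filter called 1 of them.

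Il1b was the cytokine that rose. It encodes the inflammasome-processed cytokine interleukin-1 beta and stood at 7.01, 20.4 and 21.7 CPM in LPS controls, against 0.864, 1.198 and 1.72 CPM in saline controls, a 12.2-fold difference (log2 fold change 3.61, SE 0.54, edgeR adjusted p = 0.00342), with LPS control 1 lowest of the LPS libraries. It was the called member among 19 cytokine genes, of which 10 were tested and 9, among them Il6, Il10, Il12b, Ifnb1 and Csf3, had too few counts in these libraries. Tnf averaged 5.68 ± 2.86 CPM in LPS controls and 1.85 ± 0.68 CPM in saline controls with no overlap (1.54, edgeR adjusted p = 0.323), and Il1rn, the natural antagonist of interleukin-1, averaged 5.504 ± 3.05 CPM in LPS controls and 1.604 ± 0.688 CPM in saline controls (1.74, edgeR adjusted p = 0.156). In the list of 16 interleukin-1 and inflammasome genes, all tested, Mefv, which encodes the inflammasome sensor pyrin, was the other called member, at 2.49, 3.18 and 2.68 CPM in LPS controls, against 0.346, 0.171 and 0.0907 CPM in saline controls (log2 fold change 3.85, SE 0.63, edgeR adjusted p = 0.00728), a call lost without saline control 3 (edgeR adjusted p = 0.0583). Nlrp3 and Casp1 were not called, at log2 −0.65 and −0.80.

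Chemokine genes leaned upward. Of 22 listed 15 were tested, 4 were called higher (0.526% of all genes) and 0 lower, 14 of 15 were above 0 and the median was 1.70, also with Cxcl13 at its lower bound. DESeq2 called 6. Ccl5, which draws T cells and monocytes, stood at 13.2, 16.7 and 34.8 CPM in LPS controls, against 1.04, 2.74 and 2.45 CPM in saline controls (log2 fold change 3.33, SE 0.40, edgeR adjusted p = 0.000852). Cxcl10, an interferon-induced ligand of CXCR3, stood at 8.29, 4.56 and 13.1 CPM in LPS controls, against 0.346, 0.171 and 0.726 CPM in saline controls (log2 fold change 4.16, SE 0.57, edgeR adjusted p = 0.00189). Cxcl16, a scavenger receptor and ligand of CXCR6, stood at 27.9, 18.5 and 36.4 CPM in LPS controls, against 6.39, 3.59 and 3.72 CPM in saline controls (log2 fold change 2.61, SE 0.39, edgeR adjusted p = 0.00355). Their LPS and saline values were apart, and LPS control 3 was highest in all 3. Cxcl13, which attracts B cells, had 15, 17 and 21 counts in LPS libraries and none in saline, at least 10.8-fold more (edgeR adjusted p = 0.0147), and its call was lost without LPS control 3 (adjusted p 0.0579), without saline control 3 (0.0761) and with only the 6 control libraries (0.0573). Ccl2, which recruits monocytes, and Ccl12 averaged 7.54 against 2.28 CPM and 25.7 against 6.64 CPM in LPS against saline controls, both without overlap and not called (log2 1.7 and 1.97), though Ccl12 was called without LPS control 1 (edgeR adjusted p = 0.0188).

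Acod1 (ENSMUSG00000022126) was the metabolic enzyme with the largest difference. It makes itaconate from an intermediate of the citric acid cycle in activated macrophages and stood at 12.2, 17.6 and 37.9 CPM in LPS controls, against 0.173, 0.342 and 0.181 CPM in saline controls, a 95.3-fold difference (log2 fold change 6.58, SE 0.62, edgeR adjusted p = 0.000118). Ldha, a subunit of lactate dehydrogenase, stood at 129, 140.5 and 192 CPM in LPS controls, against 82.1, 69.3 and 76.1 CPM in saline controls (log2 fold change 1.02, SE 0.19, edgeR adjusted p = 0.0158), a small change whose edgeR adjusted p was 0.122 without LPS control 3, 0.0583 without saline control 2 and 0.0954 with only the 6 control libraries. Of 20 listed enzymes 18 were tested, these 2 rose, 0 fell and the median was 0.18. Arg1 had log2 −0.23 and the hypoxia factor gene Hif1a −0.76, neither called, and Nos2 and Ido1 had too few counts to be tested.

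Receptors that bind bacteria and dead cells contained several of the largest changes. Marco (ENSMUSG00000026390), a scavenger receptor for bacterial surfaces, stood at 31.5, 45.9 and 95.8 CPM in LPS controls, against 0.173, 0.171 and 0.0907 CPM in saline controls. The saline group held 3 counts in all, and the ratio of the pooled groups' CPM was 402, with a counting interval of 137 to 1952 (edgeR adjusted p = 0.000118). Cd5l, a secreted member of the scavenger receptor family, had 188, 210 and 165 counts in LPS libraries and 1, 2 and 0 in saline libraries, a ratio of 115 (39.1 to 558, edgeR adjusted p = 0.000618). These intervals have a confidence level of 95% and cover counting error only. Siglec1 (CD169), a macrophage receptor for sialic acid, stood at 28.1, 22.95 and 43.1 CPM in LPS controls, against 1.900, 2.05 and 3.36 CPM in saline controls (log2 fold change 3.62, SE 0.31, edgeR adjusted p = 8.41e-05). Msr1, the class A scavenger receptor, stood at 11.2, 11.8 and 17.4 CPM in LPS controls, against 1.04, 1.03 and 0.726 CPM in saline controls (log2 fold change 3.88, SE 0.54, edgeR adjusted p = 0.00221). Clec4e (Mincle), a C-type lectin for mycobacterial glycolipid, stood at 3.24, 7.74 and 7.95 CPM in LPS controls, against 0.346, 0.513 and 0.363 CPM in saline controls (log2 fold change 3.93, SE 0.65, edgeR adjusted p = 0.00752), a call lost without saline control 3 (adjusted p 0.0597). These 5 were the called members of 20 tested (21 listed), against 0.526% of all genes called higher. In the list 0 were lower, and the median was 0.52. Cd68, a lysosomal protein of phagocytes, averaged 157 ± 40.7 CPM in LPS controls and 142 ± 36.3 CPM in saline controls (log2 0.14) and was not called.

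Fcgr4, a mouse activating receptor for IgG, stood at 13.3, 23.3 and 35.9 CPM in LPS controls, against 2.76, 2.05 and 2.45 CPM in saline controls (log2 fold change 3.31, SE 0.37, edgeR adjusted p = 0.000444). It was the called member of 7 Fc gamma receptor and adaptor genes, all of which were tested and above 0, at a median of 0.55. Fcgr2b, the inhibitory receptor, averaged 52.99 ± 13.8 CPM in LPS controls and 24.6 ± 4.03 CPM in saline controls without overlap (1.11, edgeR adjusted p = 0.147), and Fcgr1 and Fcgr3 had log2 values of 0.30 and 0.28.

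Complement genes were uneven. C3, on which all complement pathways converge, stood at 71.7, 68.1 and 84.1 CPM in LPS controls, against 22.98, 28.6 and 15.2 CPM in saline controls (log2 fold change 1.76, SE 0.24, edgeR adjusted p = 0.00181), and C4b, of the classical and lectin pathways, at 49.98, 36.2 and 62.7 CPM in LPS controls, against 7.601, 5.48 and 15.3 CPM in saline controls (log2 fold change 2.35, SE 0.34, edgeR adjusted p = 0.00299). These were the 2 called of 17 tested (19 listed), 0 were lower and the median was 0.59, and DESeq2 called 5. The C1q genes C1qa, C1qb and C1qc, among the most abundant microglial transcripts, had log2 values of 0.052, 0.33 and 0.32. C5ar1, the receptor for C5a, averaged 43.00 against 14.7 CPM in LPS against saline controls, apart but not called (edgeR adjusted p = 0.108).

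Of 18 adhesion and migration receptors, all tested, 2 rose, 0 fell and the median was 0.68, and DESeq2 called 6. Itgal, the alpha chain of the leukocyte integrin LFA-1, stood at 40.03, 46.1 and 66.3 CPM in LPS controls, against 4.66, 8.04 and 7.62 CPM in saline controls (log2 fold change 2.89, SE 0.28, edgeR adjusted p = 0.000118). Fpr1, the receptor for bacterial formyl peptides, stood at 9.95, 17.3 and 21.1 CPM in LPS controls, against 1.04, 3.59 and 1.36 CPM in saline controls (log2 fold change 3.05, SE 0.49, edgeR adjusted p = 0.00603). Itgb2, the partner chain of Itgal, averaged 119 against 59.5 CPM in LPS against saline controls, apart and not called (1.0), and Fpr2 had log2 2.01 (edgeR adjusted p = 0.0812). Itgb2 was called without saline control 1 (edgeR adjusted p = 0.0477) and Fpr2 without saline control 2 (0.043).

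A set of interferon-stimulated genes rose. Of 30 listed 29 were tested, 7 were called higher, against 0.526% of all genes, and 0 lower. The median was 0.87, and 26 were above 0, against 43.5% of all genes. Every LPS value lay above every saline value in 18, against 5.46% of all genes. Ifitm3, which blocks entry of viruses into the cell, was the most abundant of the called members, at 120.5, 102 and 229.9 CPM in LPS controls, against 17.8, 13.9 and 37.1 CPM in saline controls (log2 fold change 2.7, SE 0.41, edgeR adjusted p = 0.00398). Ifi27l2a stood at 27.4, 9.82 and 46.8 CPM in LPS controls, against 3.801, 1.88 and 4.45 CPM in saline controls (log2 fold change 3.01, SE 0.49, edgeR adjusted p = 0.00616), and Zbp1, a sensor of Z-form nucleic acids, at 12.2, 9.82 and 19.4 CPM in LPS controls, against 2.94, 1.198 and 1.36 CPM in saline controls (log2 fold change 2.94, SE 0.44, edgeR adjusted p = 0.00355). In all 3, LPS control 2 was the lowest LPS library and still above every saline library. Oas1a, Oasl1 and Oasl2, of the oligoadenylate synthetase family, had log2 values of 2.38, 3.8 and 2.22, and Bst2 (tetherin), which holds virus particles on the cell, 2.14. Without saline control 1 the edgeR adjusted p was 0.0568 for Oas1a and 0.0954 for Oasl1, which was also lost without LPS control 3 (0.0862) and saline control 2 (0.0577), so that 5 of the list were called without saline control 1. Oasl1 was also lost with sex from the labels as a covariate (edgeR adjusted p = 0.0766), and Bst2 with only the 6 control libraries (0.0563). Ifitm2, a close relative of Ifitm3 outside that list, stood at 15.4, 16.6 and 28.5 CPM in LPS controls, against 2.94, 0.513 and 3.18 CPM in saline controls (log2 fold change 3.12, SE 0.50, edgeR adjusted p = 0.00616).

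Other well-known members of the type I interferon response were not called. Isg15 averaged 3.49 ± 1.19 CPM in LPS controls and 1.15 ± 0.826 CPM in saline controls (1.45, edgeR adjusted p = 0.395), Ifit1 had log2 0.35 and Mx1 0.86. Irf7, a master regulator of that response, averaged 21.3 ± 8.42 CPM in LPS controls and 7.03 ± 5.63 CPM in saline controls with overlap (1.53, edgeR adjusted p = 0.403) and was called without saline control 3 (edgeR adjusted p = 0.0484). Among 14 interferon-induced GTPases 8 were tested and 0 called by edgeR, with 2 at an unadjusted p under 0.05, at a median of 0.16. In that list Gbp2 averaged 5.12 ± 2.31 CPM in LPS controls and 0.986 ± 0.339 CPM in saline controls with no overlap and an edgeR adjusted p of 0.0648 (0.0433 without LPS control 1), DESeq2 called 1 member, and edgeR without the filter called 1.

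Of the MHC class I heavy chains, which present peptides to CD8 T cells, H2-K1, H2-D1 and H2-Q4 rose. H2-K1 stood at 268, 185 and 331 CPM in LPS controls, against 77.6, 38.9 and 64.2 CPM in saline controls (log2 fold change 2.12, SE 0.27, edgeR adjusted p = 0.00115), and H2-D1 at 196, 179.9 and 274 CPM in LPS controls, against 96.9, 60.6 and 72.9 CPM in saline controls (log2 fold change 1.5, SE 0.24, edgeR adjusted p = 0.00616). H2-Q4 was much scarcer, at 3.99, 4.15 and 5.69 CPM in LPS controls, against 1.04, 1.54 and 1.63 CPM in saline controls (log2 fold change 1.68, SE 0.33, edgeR adjusted p = 0.0263), and its edgeR adjusted p was 0.0623 to 0.143 without any one of LPS controls 2 and 3 and saline controls 1, 2 and 3, 0.078 with sex from the labels and 0.12 with only the 6 control libraries. The class I list had 3 called higher of 15 tested (17 listed), against 0.526% of all genes, 0 lower, and a median of 1.0. DESeq2 called 7. B2m, the light chain of class I, averaged 433 ± 83.6 CPM in LPS controls and 216 ± 27.3 CPM in saline controls without overlap and was not called (1.0, edgeR adjusted p = 0.109). Ifi30, a lysosomal thiol reductase that helps prepare antigens, stood at 102, 97.5 and 174 CPM in LPS controls, against 25.2, 18.3 and 19.2 CPM in saline controls (log2 fold change 2.57, SE 0.26, edgeR adjusted p = 0.000223). All 9 class II genes were tested, and 0 were called by edgeR or DESeq2, 3 had an unadjusted p under 0.05, and edgeR without the filter called 1. Their median was −0.47, H2-Ab1 had log2 −0.94 and Cd74, the invariant chain, −0.55, with overlapping groups. Reads of the H2 genes, the Oas genes and the Ifitm genes may be split between near-identical copies.

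The promoters of 4 genes that rose are shown because they hold motifs that factors activated by LPS and interferon are known to bind. They span 250 bases before to 50 bases after the start site, 5′ to 3′ in the direction of the gene, and were taken from RefSeq on GRCm38.p6. Capitals mark matches on either strand, positions are counted from the start site as base 1 with −1 just before it, and overlapping matches run together. Cxcl10 (chr5:92348840-92349139, minus strand) held NF-kB motif matches at −159 to −150 and −103 to −94 and a match to the core of the interferon-stimulated response element (ISRE, GAAA, any 2 bases, then GAAA) at −213 to −204. Fcgr4 (chr1:171018676-171018975, plus strand) held an NF-kB match at −152 to −143, an ISRE core at −73 to −64 and a motif of the macrophage factor PU.1 (GAGGAAGT), on the opposite strand, at −24 to −17. Tlr2 (chr3:83841559-83841858, minus strand) held overlapping NF-kB matches that start at −173 and −172, and another at −8 to 2. Oas1a (chr5:120907476-120907775, minus strand) held overlapping ISRE cores at −20 to −11 and −14 to −5.
Cxcl10: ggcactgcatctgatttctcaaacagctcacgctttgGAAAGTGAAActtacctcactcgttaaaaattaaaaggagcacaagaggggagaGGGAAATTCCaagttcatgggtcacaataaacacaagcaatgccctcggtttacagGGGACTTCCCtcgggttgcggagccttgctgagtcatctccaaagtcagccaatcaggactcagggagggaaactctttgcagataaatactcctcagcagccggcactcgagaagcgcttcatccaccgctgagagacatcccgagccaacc
Fcgr4: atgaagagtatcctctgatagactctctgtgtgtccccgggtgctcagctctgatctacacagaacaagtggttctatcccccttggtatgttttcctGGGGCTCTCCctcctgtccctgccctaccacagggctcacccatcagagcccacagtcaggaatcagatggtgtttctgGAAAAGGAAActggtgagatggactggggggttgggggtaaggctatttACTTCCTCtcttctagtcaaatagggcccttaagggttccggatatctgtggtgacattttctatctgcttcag
Tlr2: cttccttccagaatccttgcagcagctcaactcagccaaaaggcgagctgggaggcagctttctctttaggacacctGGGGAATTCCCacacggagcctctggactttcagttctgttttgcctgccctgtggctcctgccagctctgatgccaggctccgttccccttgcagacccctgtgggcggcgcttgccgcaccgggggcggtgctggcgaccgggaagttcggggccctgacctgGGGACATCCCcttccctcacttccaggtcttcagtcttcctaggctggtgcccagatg
Oas1a: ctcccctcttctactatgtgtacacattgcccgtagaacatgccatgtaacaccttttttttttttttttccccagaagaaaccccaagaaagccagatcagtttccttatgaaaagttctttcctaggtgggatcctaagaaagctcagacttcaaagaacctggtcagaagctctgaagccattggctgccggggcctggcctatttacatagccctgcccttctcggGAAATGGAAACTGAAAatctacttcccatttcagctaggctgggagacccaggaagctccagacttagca

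Promoters were found for 94 of the 117 higher genes, 8 of the 11 lower genes and 12844 of all tested genes. The NF-kB motif was in 14 of the 94 (14.9%) and in 5.0% of all, the ISRE core in 12 (12.8%) and 3.0% of all, the PU.1 motif in 7 (7.4%) and 3.0% of all, and the sequence TATAAA in 16 (17.0%) and 7.8% of all. Of the 8 promoters of lower genes 0 held an NF-kB, ISRE or PU.1 match and 2 held TATAAA. The shares are a description of these windows, and a match is not a site shown to be bound.

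Genes of cell division leaned upward by moderate amounts. All 26 genes of the list were tested and above 0. In 22 the LPS and saline values did not overlap (5.46% of all genes were above in this way). By edgeR 7 rose, against 0.526% of all genes, 0 fell and the median was 1.41. Top2a, a DNA topoisomerase of dividing cells, stood at 30.7, 21.9 and 38.4 CPM in LPS controls, against 6.74, 7.702 and 3.27 CPM in saline controls (log2 fold change 2.4, SE 0.44, edgeR adjusted p = 0.015), and its edgeR adjusted p was 0.0598 to 0.076 without any one of LPS control 3, saline control 1 and saline control 3. Cdc20, an activator of the anaphase-promoting complex, stood at 5.95, 5.88 and 12.5 CPM in LPS controls, against 0.691, 0.856 and 1.09 CPM in saline controls (log2 fold change 3.13, SE 0.39, edgeR adjusted p = 0.00109). Ube2c, a ubiquitin-conjugating enzyme that works with that complex, stood at 14.4, 6.498 and 21.8 CPM in LPS controls, against 1.900, 0.171 and 1.996 CPM in saline controls (log2 fold change 3.29, SE 0.54, edgeR adjusted p = 0.00668). The groups were apart in each of them. Birc5 (survivin), the kinase genes Aurka and Aurkb, and the replication helicase gene Mcm5 were the other called members, at log2 2.39, 2.67, 2.46 and 2.05. Mki67, the usual marker of cycling cells, averaged 30.3 ± 6.63 CPM in LPS controls and 18.2 ± 3.25 CPM in saline controls, without overlap and not called (0.74, edgeR adjusted p = 0.65). DESeq2 called 12 of the 26.

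Annexins, S100 proteins and galectins are calcium- and sugar-binding proteins that rise in activated phagocytes. Their list had 6 called higher of 17 tested (18 listed), against 0.526% of all genes, 0 lower, and a median of 0.70. Lgals1 (galectin-1) stood at 28.5, 22.95 and 66.2 CPM in LPS controls, against 3.63, 2.91 and 6.35 CPM in saline controls (log2 fold change 3.13, SE 0.45, edgeR adjusted p = 0.00267), with LPS control 3 far above the other LPS libraries. Anxa2, a membrane-binding annexin, stood at 33.3, 52.7 and 67.7 CPM in LPS controls, against 9.67, 8.22 and 7.99 CPM in saline controls (log2 fold change 2.57, SE 0.29, edgeR adjusted p = 0.000441). Lgals3, Lgals3bp and S100a6 had log2 values of 2.1, 2.16 and 1.99. Anxa5 had 1.41, with an edgeR adjusted p of 0.0761 to 0.0946 without any one of LPS control 3, saline control 1 and saline control 3, and 0.0556 with only the 6 control libraries. Lyz2 and Lgals3 were also the 2 called of 25 genes of the disease-associated microglial state, all tested, 0 lower, at a median of 0.59. Other members of that state were not called, such as Apoe (0.65), Spp1 (0.59), Cst7 (0.76) and Clec7a (−1.27).

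The remaining genes of largest change had diverse functions. Spn (CD43), a sialoprotein of leukocytes, stood at 18.1, 17.3 and 28.1 CPM in LPS controls, against 1.38, 3.08 and 3.45 CPM in saline controls (log2 fold change 2.95, SE 0.41, edgeR adjusted p = 0.00224). Tspo, a mitochondrial outer membrane protein used as an imaging target of activated microglia, stood at 25.5, 16.9 and 45.97 CPM in LPS controls, against 3.97, 1.03 and 5.99 CPM in saline controls (log2 fold change 2.93, SE 0.47, edgeR adjusted p = 0.00547). Nr1h3, the oxysterol receptor LXR-alpha, stood at 13.7, 11.9 and 28.03 CPM in LPS controls, against 3.46, 2.22 and 2.09 CPM in saline controls (log2 fold change 2.8, SE 0.39, edgeR adjusted p = 0.0023). No LPS value of these genes overlapped a saline value. Fgr, a Src family kinase of myeloid cells, stood at 23.8, 31.04 and 45.97 CPM in LPS controls, against 5.01, 4.79 and 5.72 CPM in saline controls (log2 fold change 2.68, SE 0.28, edgeR adjusted p = 0.00027). Tagln2, an actin-binding protein, stood at 75.6, 60.6 and 174 CPM in LPS controls, against 13.8, 8.56 and 26.1 CPM in saline controls (log2 fold change 2.65, SE 0.44, edgeR adjusted p = 0.00752). Pilra, an inhibitory receptor of myeloid cells, stood at 24.3, 27.6 and 40.2 CPM in LPS controls, against 6.05, 3.94 and 5.17 CPM in saline controls (log2 fold change 2.59, SE 0.30, edgeR adjusted p = 0.00054). LPS control 3 was the highest library in each of those 6 genes.

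Eicosanoid, glucocorticoid and cholesterol genes gave 1 call. Hpgd was the 1 called of 16 eicosanoid genes, all tested, at a median of −0.18. Ptgs2 (cyclooxygenase-2) averaged 17.7 ± 1.47 CPM in LPS controls and 15.4 ± 2.799 CPM in saline controls (0.20). Of 11 glucocorticoid-responsive genes 10 were tested and 0 called by edgeR or DESeq2, with 1 at an unadjusted p under 0.05, at a median of −0.14, and edgeR without the filter called 1. Of 18 genes of cholesterol synthesis and uptake, all tested, 0 were called by edgeR or DESeq2, with 1 at an unadjusted p under 0.05, at a median of −0.24. Of the 117 higher genes 52 were in one of the 26 gene lists and 65 in none.

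**Figure D3:**
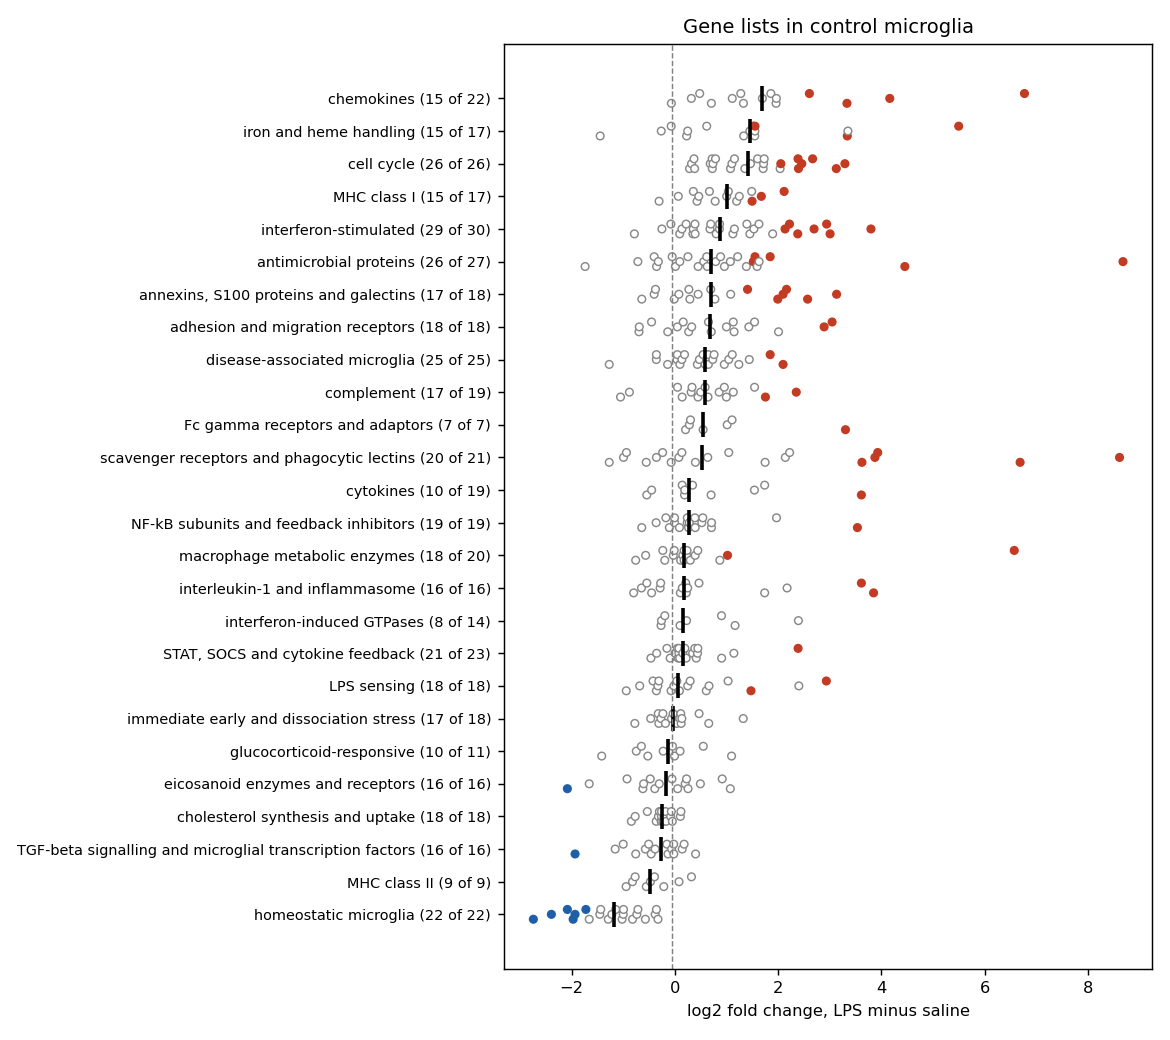
Log2 fold change of LPS over saline for the tested members of each gene list, with the number tested of the number listed in parentheses, called members filled (red higher, blue lower), others open, a black bar at the list's median and a dashed line at the median of all tested genes (−0.05). The lists run from chemokines (median 1.70) at the top to homeostatic microglia (−1.18) at the bottom.

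The response was then set beside that of the Serpine2-/- littermates, 3 LPS and 3 saline libraries in the same fit. There 1.01% of genes were called higher and 29 genes (0.13%) lower. Of the control calls 105 of 117 (89.7%) were called higher and 9 of 11 (81.8%) called lower in knockouts, which made up 46.7% and 31% of the knockout calls in those directions. All 128 had the same sign. Saa3 had log2 8.68 in controls and 9.36 in knockouts, Marco 8.61 and 8.96, Il1b 3.61 and 3.18, P2ry12 −2.74 and −2.76, and H2-K1 2.12 and 2.1. The control value was the smaller for 45 and the larger for 72 of the 117 higher genes. These genes were chosen by their calls in controls, which by itself favours larger control values. The 2 counts therefore do not show a weaker response in knockouts.

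The difference between the genotypes' responses was tested as an interaction, and 0 of 22230 genes (0%) were called by edgeR, while 251 had an unadjusted p under 0.05. DESeq2 called 1, Camp, and edgeR without the filter called 7. Among the genes called in controls 14 were not called in knockouts, which by itself shows no difference. Lcn2 was one, at log2 1.55 (SE 0.28) in controls and 0.81 (SE 0.27) in knockouts, a difference of 0.74 with a 95% interval of −0.073 to 1.56 (edgeR unadjusted p = 0.0713). Ube2c was another, at 3.29 and 1.63, a difference of 1.66 (0.14 to 3.19, edgeR unadjusted p = 0.0346). In Tlr2 the knockout value was larger, at 1.48 in controls and 2.12 in knockouts, a difference of −0.65 (−1.45 to 0.15). The antimicrobial list had a median of 0.71 in controls and −0.32 in knockouts. The neutrophil markers had medians of 0.08 and −1.36, and summed to 412 to 1099 CPM in LPS knockouts and 1407 to 2590 CPM in saline knockouts, and their part in that gap was not tested.

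**Figure D4:**
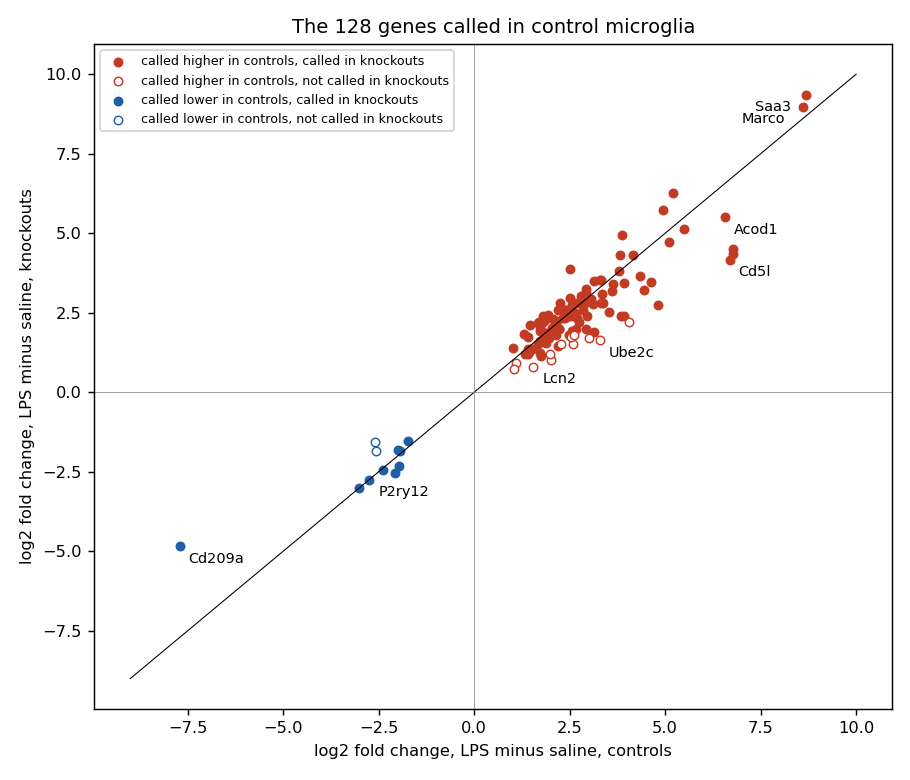
Log2 fold change of LPS over saline in controls (x axis) and in knockouts (y axis) for the 128 genes called in controls, red higher and blue lower, filled where the gene was also called in knockouts and open for the 14 that were not, with the line of equal values. All 128 lie in the quadrants of equal sign, and Cd5l and Cd209a are among those farthest from the line.

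Markers of other cells were measured beside these results. T and NK cell markers summed to 16.5 to 35.5 CPM in LPS libraries and 3.27 to 5.79 in saline libraries, and 2 of the 6 tested of 11 listed rose. These were the granzyme genes Gzma, at 6.48, 16.5 and 16.1 CPM in LPS controls, against 0.518, 0.685 and 0.0907 CPM in saline controls (log2 fold change 5.09, SE 0.72, edgeR adjusted p = 0.00237), and Gzmb, with 41, 60 and 63 counts in LPS libraries and 3, 0 and 0 in saline, a ratio of 33.4 (counting interval 11.2 to 164). All 6 were above 0, at a median of 2.3, but Trbc2 had log2 0.021 and Ncr1 1.02, both with overlap and not called. Prf1, which encodes perforin, had log2 2.5 (edgeR adjusted p = 0.0517) and Nkg7, a granule protein of such cells, 2.09 (edgeR adjusted p = 0.277), both with every LPS value above every saline value and not called. Prf1 was called with RLE factors, with the replicate block, without the filter and without LPS control 1 (edgeR adjusted p 0.00102 to 0.045) and by DESeq2 (0.00548), and Nkg7 without the filter (0.0254). Other listed genes were under the filter. The defining T cell gene Cd3e had 2, 9 and 4 counts in LPS libraries and 0, 0 and 1 in saline libraries. Cd3d had 5, 1 and 0 against 0, 1 and 2, and Cd3g 4, 1 and 1 against 0, 0 and 0. The NK cell gene Klrb1c had 6, 7 and 5 against 1, 0 and 1. Klrd1 had 12, 14 and 9 against 9, 6 and 7. Whether lymphocytes in the preparations had a part in the rise of Ccl5 or Itgal, which such cells also express, was not tested.

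Monocyte markers summed to 167 to 180 CPM in LPS libraries and 156 to 196 in saline libraries, with 1 of 8 tested called, Plac8, at 7.31, 6.22 and 13.2 CPM in LPS controls, against 1.900, 1.88 and 1.72 CPM in saline controls (log2 fold change 2.27, SE 0.41, edgeR adjusted p = 0.0133), a call lost without LPS control 3, saline control 1 or saline control 3 (edgeR adjusted p 0.0593 to 0.0725). Ly6c2, which defines inflammatory monocytes, stood at 6.41, 7.397 and 11.1 CPM in LPS controls, against 7.43, 5.99 and 5.81 CPM in saline controls, with overlap. Border macrophage markers summed to 119 to 179 CPM in LPS libraries and 111 to 199 in saline libraries, with 0 of 8 tested called by edgeR or DESeq2 and 1 at an unadjusted p under 0.05. Erythroid markers summed to 34.9 to 41.9 CPM in LPS libraries and 48.0 to 152 in saline libraries, with 0 of 5 tested called by edgeR, 2 by DESeq2 and 4 at an unadjusted p under 0.05. Hbb-bs, a hemoglobin gene, stood at 11.4, 6.22 and 5.26 CPM in LPS controls, against 45.4, 98.2 and 17.4 CPM in saline controls (log2 −2.8, edgeR adjusted p = 0.102, 0.0201 without saline control 3). Endothelial marker sums were 33.5 to 36.6 CPM in LPS libraries and 28.5 to 30.5 in saline libraries, with 0 of 7 tested called by edgeR or DESeq2 and 1 at an unadjusted p under 0.05. Ependymal and choroid plexus markers summed to 64.2 to 83.0 CPM in LPS libraries and 28.8 to 55.6 in saline libraries, apart, with 0 of 3 tested (6 listed) called by edgeR or DESeq2. EdgeR without the filter called 1, and 1 had an unadjusted p under 0.05. Astrocyte sums were 580.0 to 599.6 CPM in LPS libraries and 502 to 591 in saline libraries, with 0 of 10 tested called by edgeR, 1 by DESeq2 and 1 at an unadjusted p under 0.05. Of the 11 neuron markers 0 were called by edgeR or DESeq2 and 2 had an unadjusted p under 0.05. Border macrophages, which share many genes with microglia, and the other lists are in the plot of marker sums. Whether these cells had a part in the called differences was not tested.

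**Figure D5:**
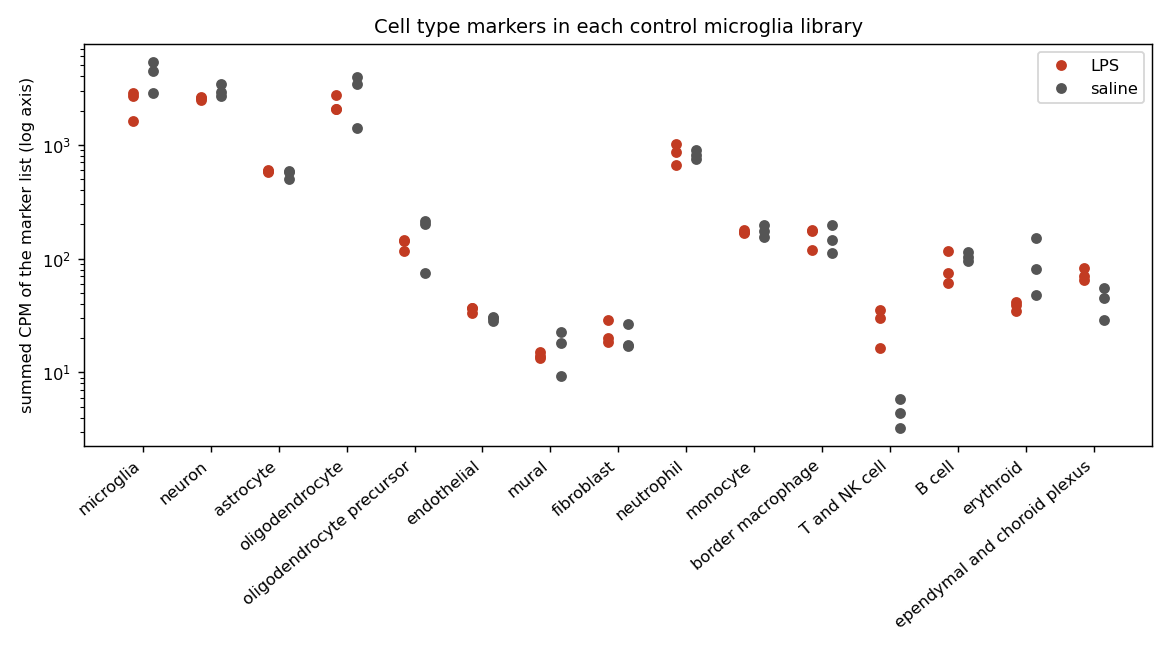
Summed CPM (log axis) of 15 lists of cell type markers in each control library, LPS in red on the left and saline in grey on the right of each pair. T and NK cell, ependymal and choroid plexus, and endothelial sums lie higher in every LPS library, erythroid and neuron sums lie lower, and the other 10 lists overlap.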

How the data were processed

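RNA of 12 microglia preparations, 3 each of LPS control, saline control, LPS knockout and saline knockout, was sequenced. The deposited values are raw counts of reads, 1 whole number for each Ensembl identifier. The submitters' processing notes name STAR 2.6.0c and HTSeq (no version given), and give GRCm38 and GRCm39 without a role, so no coordinates are printed except those of promoter windows, which are from RefSeq on its own build. Strand setting, counting mode and annotation release are not given in the sources used here, so overlapping and antisense genes are uncertain. Per the labels' protocols the libraries were made with Ovation V2 and NEBNext Ultra kits.

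Of 53700 identifiers 52093 had a symbol in the reference table. Entries that name no gene (reads outside genes, ambiguous or not unique) were dropped. The 22230 genes kept by filterByExpr (minimum count 10, minimum total 15) were scaled by TMM and fitted with edgeR 4.0.16 under R 4.3.3, a robust quasi-likelihood model with 1 mean in each of 4 groups over the 12 libraries. Contrasts were LPS minus saline in controls, the same in knockouts, and the difference, tested two-sided with adjustment over all genes. CPM use TMM-scaled library sizes, and SD is over the 3 libraries of a group. Promoters were matched by symbol. Analysis steps were tested on simulated counts.

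The libraries, genes, 26 gene lists and 15 marker lists were chosen with earlier results of these data known. Lists share genes. Named were all genes called lower, the 25 called higher with the largest change among those averaging 8 CPM or more, members of a list where it is described, Serpine2 and sex-linked genes, and genes called in the difference. Predicted genes were counted and not named. Others are said to be chosen after their values were seen. Replicate numbers were not used to pair the samples in the main fit, and whether they mark pairs is not known. Alternatives were RLE factors, DESeq2 1.42.0, no filter, a minimum count of 50, sex from labels, a replicate block, only the 6 control libraries, each library left out and, added after seeing the data, sex from transcripts. Astrocyte libraries were not used here. Reads carry no molecular identifiers, so counting intervals cover counting error only.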

Additional observations from a re-analysis of the deposited data

Results flagged for a closer look

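Mpo, which encodes the myeloperoxidase of neutrophil granules, had LPS values on opposite sides of the saline values in the genotypes, and neither difference was called. It was picked for these opposite, non-overlapping values from the members of the gene and marker lists and the called genes. The opposite sides restate that choice, and the unadjusted p-value below is not independent of it. Mpo stood at 14.3, 8.85 and 11.1 CPM in LPS controls, against 5.53, 5.65 and 7.17 CPM in saline controls, and at 3.26, 11.2 and 3.19 CPM in LPS knockouts, against 12.2, 24.1 and 17.1 CPM in saline knockouts. Every LPS library lay above every saline library in controls (log2 fold change 0.89, SE 0.42, edgeR adjusted p = 0.689) and below every saline library in knockouts (log2 fold change −1.68, SE 0.43, edgeR adjusted p = 0.0886). The difference of the responses, control minus knockout, was 2.57 with a 95% interval of 1.29 to 3.85 (edgeR unadjusted p = 0.000689) and was not called over all genes (adjusted p 1). The summed neutrophil markers of the control libraries, given above, overlapped between LPS and saline, while in knockouts they were 1099, 937 and 412 CPM with LPS and 1407, 1664 and 2590 CPM with saline, apart. In knockouts Camp, Ngp and Ltf were called lower (log2 −2.89, −2.06 and −1.68, edgeR adjusted p 0.000644, 0.00359 and 0.0322), and Elane had −2.49 and was not called (0.114). In controls the same 4 genes had −0.35, −0.051, 0.25 and 0.96, with overlap. The part of neutrophil RNA in the Mpo result was not tested.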

How the results depend on the processing

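All 128 called genes kept their sign in the 14 alternatives that tested them, 77 kept the call in each, and 82 kept it whichever control library was left out. DESeq2 called 250 genes higher and 35 lower, and 1 for the difference between genotypes (Camp). Without a filter on low counts edgeR called 362, 101 and 7, the 7 being Mpo, Elane, Ngp, Ltf, Camp and S100a8, with larger values in controls, and Xist with a smaller one. By transcripts the female libraries were LPS control 3, saline control 2, LPS knockouts 1 and 3 and saline knockout 2. The Xist difference cannot be told apart from this makeup of the groups by sex. Leaving out each control library gave 83 to 124 genes higher, 6 to 13 lower and 0 for the difference. With RLE factors, a minimum count of 50, sex from labels or transcripts, or only the 6 control libraries, there were 89 to 126 higher and 9 to 14 lower. The correlation of same-numbered LPS and saline libraries' deviations from their group means was −0.04, 0.53 and 0.32 for numbers 1, 2 and 3. For libraries of different numbers it ran from −0.529 to 0.262. With 3 libraries a group these values cannot settle whether the numbers pair the samples. With the replicate block 139 genes were called higher and 20 lower. Some genes that were not called, with values near 0, changed sign. With sex from the labels as a covariate Fos had −0.059 and Ngp 0.0391, and without the filter Ngp had 0.00307. Leaving out each library gave log2 values of −0.015 to 0.40 for Cd68, −0.39 to 0.43 for C1qa, −0.0296 to 0.76 for C1qb, −0.038 to 0.68 for C1qc, −0.0836 to 0.0443 for Ngp and −0.0071 to 0.79 for Cd14. Why these values moved was not tested. With 3 libraries a group and 5354865 to 13621776 gene counts each, changes of genes near 1 CPM rest on few reads.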

Other observations

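Some genes outside the lists, chosen after their values were seen, also had large differences. Stfa3, a cytosolic cysteine protease inhibitor of the stefin family, had 27, 126 and 78 counts in LPS libraries and 1, 0 and 0 in saline libraries, a ratio of 141 (counting interval 25.1 to 5602, edgeR adjusted p = 0.00128). Its relatives Stfa2 and BC100530 had 4, 69 and 52 and 4, 41 and 31 counts in LPS libraries and none in saline, and were not called (edgeR adjusted p = 0.0533 and 0.0587), and reads may be split between these near-identical copies. In all 3, LPS control 1 was by far the lowest LPS library, and without it Stfa2 and BC100530 were called (edgeR adjusted p 0.00149 and 0.00373). Cd300e, an activating receptor of monocytes, had 59, 123 and 81 counts in LPS libraries and 4, 0 and 0 in saline (edgeR adjusted p = 0.00901). Treml4, a receptor of myeloid cells, stood at 8.14, 8.92 and 15.4 CPM in LPS controls, against 0.346, 0.513 and 1.18 CPM in saline controls (log2 fold change 3.81, SE 0.50, edgeR adjusted p = 0.00147).

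The interleukin-2 receptor chains Il2rb and Il2rg both rose. Il2rb, a chain shared by the receptors of interleukins 2 and 15, stood at 5.35, 4.701 and 6.44 CPM in LPS controls, against 0, 0.513 and 0.454 CPM in saline controls (log2 fold change 3.93, SE 0.55, edgeR adjusted p = 0.00221), and Il2rg, the common gamma chain, at 6.41, 5.12 and 8.48 CPM in LPS controls, against 0.518, 0.513 and 0.817 CPM in saline controls (log2 fold change 3.33, SE 0.43, edgeR adjusted p = 0.00128). T and NK cells express both, and their marker sums, given above, moved the same way; their part was not tested. Tgfbi, a matrix protein, stood at 91.8, 95.4 and 156 CPM in LPS controls, against 17.3, 20.5 and 26.3 CPM in saline controls (log2 fold change 2.41, SE 0.25, edgeR adjusted p = 0.000223), and Vim, the intermediate filament vimentin, at 64.2, 90.98 and 125 CPM in LPS controls, against 15.2, 23.1 and 11.5 CPM in saline controls (log2 fold change 2.5, SE 0.35, edgeR adjusted p = 0.00221). LPS control 3 was highest in both.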
